A study of Mus musculus with 12 samples.

Results

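The unfolded protein response and the protein-folding machinery of the endoplasmic reticulum (ER) were followed through 33 genes, taken by symbol from the 55401 genes of the deposited count table. They are 3 stress sensors, 3 transcription factors, 3 targets of ATF4 and CHOP, 16 folding genes (8 chaperones and partners, 2 lectin chaperones, 6 disulfide and proline folding enzymes), 7 genes of ER-associated degradation and Mzb1, a chaperone of antibody-secreting B cells. All 33 were among the 16915 genes that passed the filter on low counts. RNA came from cells that 8 mL of saline washed out of the peritoneum of C57BL/6J mice, in 3 groups of 4 libraries, each labelled a biological replicate. ID8-FSHR mice had received, 7 days earlier, the ovarian cancer line ID8 (defb29/Vegf-a) with the follicle-stimulating hormone receptor added. ID8 mice had received the line labelled ID8 (defb29/Vegf-a) without that receptor, and uninjected mice received nothing. ID8 is a line from mouse ovarian surface epithelium, grown here as a derivative that carries the defensin Defb29 and the growth factor Vegfa in both tumour groups. No group was injected without tumour cells, and the sources disagree on the cell dose, 4000000 in the design text and 5000000 in the sample protocol.

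When unfolded proteins build up in the ER, 3 sensors in its membrane respond. IRE1 (gene Ern1) splices Xbp1 mRNA so that it encodes an active transcription factor, ATF6 is cut in the Golgi to release another, and PERK (gene Eif2ak3) slows translation while favouring that of ATF4, which in turn induces CHOP (gene Ddit3). ATF6 and XBP1 raise chaperones, disulfide isomerases and the degradation machinery that returns misfolded proteins to the cytosol. ATF4 raises amino acid synthesis and stress genes, and it also answers to amino acid shortage and other stresses outside the ER. Plasma cells, secretory epithelia and tumour cells are known for heavy use of these genes. Spliced and unspliced Xbp1 share a row in a gene-level count table, so the activity of the sensors was not measured.

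The ER stress response element, bound by ATF6 and XBP1 with the factor NF-Y, was searched for as CCAAT, 9 bases of any kind and CCACG, on both strands of RefSeq promoter windows (GRCm38.p6, 250 bases before to 50 after the annotated start). Of the 33 genes 28 had a window, and 9 of these 28 (32.1%) held the element, as did 0.119% of all 32851 windows. The 9 were Hspa5, Hsp90b1, Dnajc3, Calr, Canx, Pdia6, Creld2, Derl3 and Syvn1. The shorter ERSE-II, searched for as ATTGG, 1 base of any kind and CCACG, was in Herpud1 and Dnajb11 (0.0365% of all windows). The XBP1 element TGACGTGG was in Txndc5 (0.676% of all windows). The element of ATF4 with C/EBP partners, searched for as TGATG, 1 base of any kind and AA, was in Asns, Chac1, Trib3, Herpud1 and Txndc5 (3.97% of all windows). Matches to different elements did not overlap. These matches are letters in a window, not measured binding. Mzb1, Atf6, Derl1, Manf and Hyou1 had no window. The stretches below are shown because these genes carry the results that follow: genes with the ER stress element that differed in direction (Hspa5, Creld2, Derl3, Canx, Syvn1), Herpud1 with 2 kinds of element, and the ATF4 targets Chac1 and Asns. All lie before the RefSeq start, but the Hspa5 and Asns stretches overlap an exon of their own gene in the GENCODE M21 annotation. They run 5′ to 3′ along the gene's strand, and capitals mark the matched elements on either strand.
Hspa5 (chr2:34772019-34772048, plus strand): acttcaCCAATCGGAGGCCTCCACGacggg
Creld2 (chr15:88819496-88819645, plus strand): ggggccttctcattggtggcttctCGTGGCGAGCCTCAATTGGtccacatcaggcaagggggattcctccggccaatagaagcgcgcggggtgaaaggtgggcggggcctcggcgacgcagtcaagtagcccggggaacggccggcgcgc
Derl3 (chr10:75893228-75893397, plus strand): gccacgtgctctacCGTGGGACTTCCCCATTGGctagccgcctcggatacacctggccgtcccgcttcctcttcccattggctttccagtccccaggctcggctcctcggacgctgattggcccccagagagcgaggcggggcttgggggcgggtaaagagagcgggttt
Canx (chr11:50325674-50325833, minus strand): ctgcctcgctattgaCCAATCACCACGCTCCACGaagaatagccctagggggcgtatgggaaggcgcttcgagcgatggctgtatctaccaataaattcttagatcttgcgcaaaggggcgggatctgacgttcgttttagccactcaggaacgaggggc
Syvn1 (chr19:6046526-6046555, plus strand): tcgcaaCCAATCGGCGGTAGCCACGggaac
Herpud1 (chr8:94386279-94386428, plus strand): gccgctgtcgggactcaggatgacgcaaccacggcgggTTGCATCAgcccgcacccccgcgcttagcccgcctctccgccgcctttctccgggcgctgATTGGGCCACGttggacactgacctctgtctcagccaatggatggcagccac
Chac1 (chr2:119351022-119351171, plus strand): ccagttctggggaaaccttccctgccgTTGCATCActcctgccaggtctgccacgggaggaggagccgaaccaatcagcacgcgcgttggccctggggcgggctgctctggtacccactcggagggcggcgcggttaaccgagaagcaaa
Asns (chr6:7693214-7693243, minus strand): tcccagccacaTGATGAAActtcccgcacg

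Levels are in CPM, the usual library-scaled count, here with the effective library size, and totals per library ran from 47419608 to 64333677 counts. Added Fshr could not be checked, since its row held 0, 0, 2 and 7 counts in the ID8-FSHR libraries, 0, 0, 2 and 0 in the ID8 libraries and 0 in the uninjected libraries, so ID8-FSHR means the libraries labelled so. The labels call the cell type a cell line, but a lavage is a mixture. The 12 mesothelial and tumour markers summed to 1805 to 5327 CPM in ID8-FSHR, 6375 to 8093 CPM in ID8 and 21.5 to 24.7 CPM in uninjected libraries (Bnc1 was at 0 in uninjected replicate 2). The 12 markers of resident macrophages summed to 6120 to 11380 CPM in ID8-FSHR, 9140 to 11890 CPM in ID8 and 20830 to 25420 CPM in uninjected libraries. Of these 12, 10 were lower and 1 higher in each tumour group, so they did not all move together. Without ID8-FSHR replicate 2 the higher one in ID8-FSHR was Gata6, at a log2 fold change of 0.70 over uninjected. Of 8 markers of monocytes and small macrophages 3 were lower and 2 higher in ID8-FSHR and 5 lower in ID8, with sums of 10650 to 22230 CPM in ID8-FSHR, 16710 to 21630 CPM in ID8 and 45170 to 53680 CPM in uninjected libraries. The monocyte and small macrophage markers did not move together in ID8-FSHR, so their sum is not a measure of these cells. Fewer cells of a type and less RNA per cell cannot be told apart in such a mixture. ID8-FSHR replicate 2 was unlike the other tumour libraries, with a first principal component of -24.8 against -68.7 to -60.7 in the rest, and had the lowest mesothelial and tumour marker sum of its group. The ID8-FSHR results without it stand together after the comparison of the tumour groups.

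The ER genes did not move as a block. Against uninjected mice, 18 of the 33 were higher and 9 lower in ID8 lavage, where 32.7% of all tested genes were higher and 31.4% lower (edgeR quasi-likelihood test, Benjamini-Hochberg adjusted p under 0.05 over all tested genes). Against the same uninjected libraries, 10 were higher and 13 lower in ID8-FSHR lavage, where 33.9% of all tested genes were higher and 30.6% lower. Between the tumour groups, 0 of the 33 were higher and 8 were lower in ID8-FSHR than in ID8, where 6.04% of all tested genes were higher and 5.56% lower. The median log2 fold change of the 33 was 0.30 for ID8 over uninjected (all tested genes -0.025), -0.014 for ID8-FSHR over uninjected (all tested genes 0.001) and -0.20 for ID8-FSHR over ID8 (all tested genes -0.006). The mean level was highest in ID8 for 17 genes, in uninjected mice for 11 and in ID8-FSHR for 5. The comparisons with uninjected mice share their controls, and small differences in them depend on scaling. With plain library totals, chosen after seeing the data, the median of all genes moved by 0.193 for ID8 and 0.194 for ID8-FSHR on the log2 scale, and 16 of the 33 were higher and 8 lower in ID8-FSHR than in uninjected mice, where 42.0% of all tested genes were higher and 21.7% lower. With the same scaling 22 were higher and 5 lower in ID8 than in uninjected mice, where 40.8% of all tested genes were higher and 22.5% lower.

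**Figure D1:**
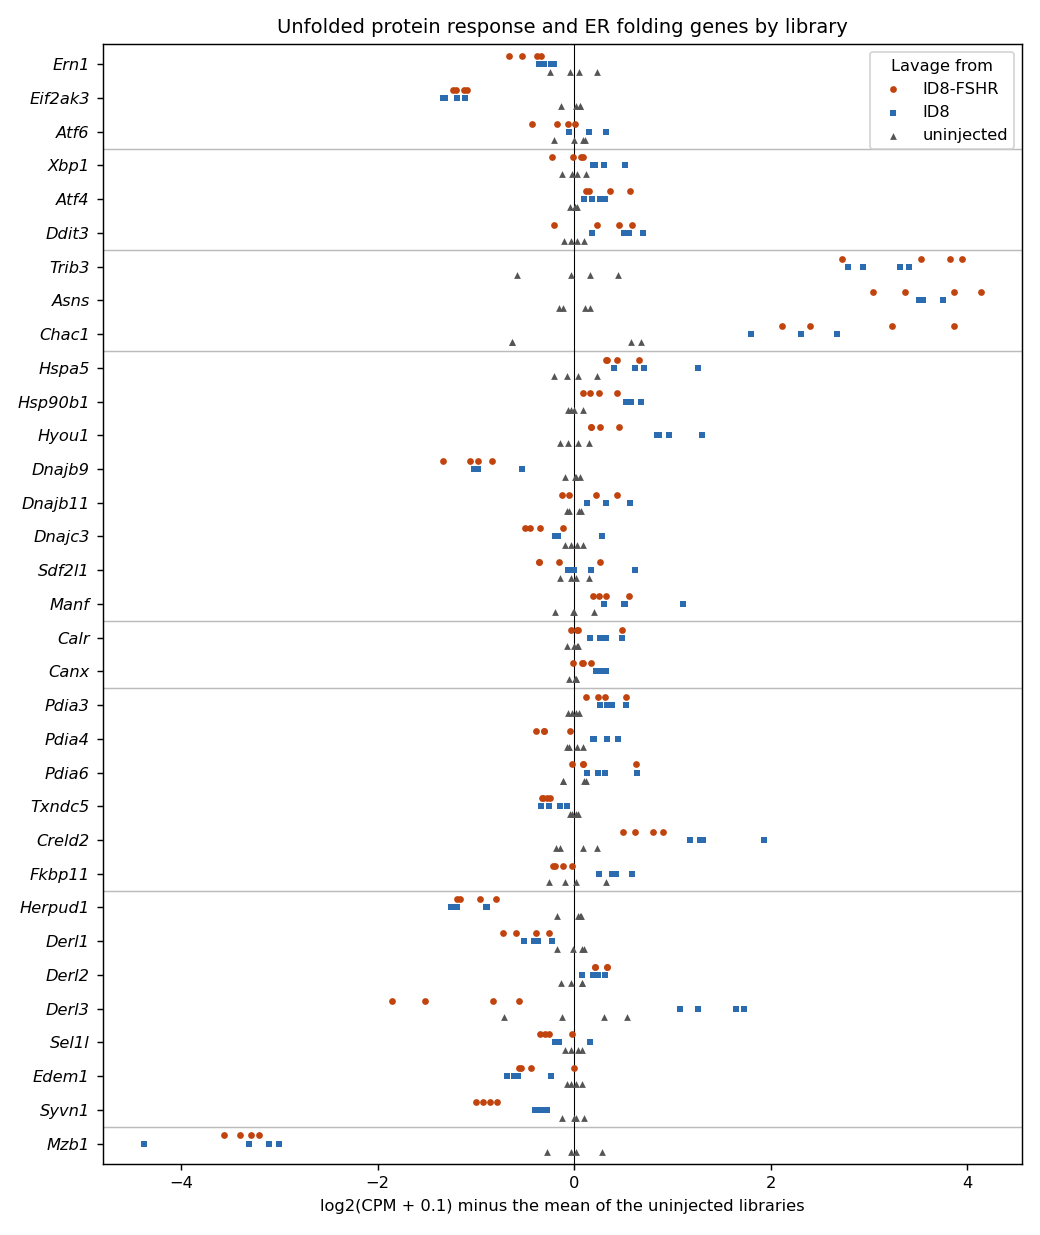
Level of each of the 33 genes in each of the 12 libraries, on a log2(CPM + 0.1) scale centred on the mean of the 4 uninjected libraries, with horizontal lines between role groups. Trib3, Asns and Chac1 lie far to the right in both tumour groups, Eif2ak3, Herpud1 and Mzb1 lie to the left in both, and Derl3 lies to the left in ID8-FSHR and to the right in ID8.

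The sensor genes were lower or not past the threshold in the tumour groups, with the clearest fall in PERK. Eif2ak3 had 50.5, 49.4, 46.7 and 45.7 CPM in ID8-FSHR, 43.4, 42.6, 49.8 and 46.9 CPM in ID8 and 98.1, 109, 112 and 112 CPM in uninjected libraries. Both tumour groups lay below every uninjected library. The log2 fold change over uninjected was -1.16 (standard error, SE, 0.070, edgeR adjusted p = 2.1e-08) in ID8-FSHR and -1.24 (SE 0.070, edgeR adjusted p = 1.13e-08) in ID8. The part of the macrophage share of the lavage in this fall was not tested. Here and below the SE is the one implied by the F statistic. Ern1, the gene of IRE1, had 135, 121, 138 and 110 CPM in ID8-FSHR, 141, 137, 152 and 149 CPM in ID8 and 205, 148, 171 and 181 CPM in uninjected libraries. Its log2 fold change over uninjected was -0.48 (SE 0.098, edgeR adjusted p = 0.000814) in ID8-FSHR and -0.29 (SE 0.098, edgeR adjusted p = 0.021) in ID8, where the groups overlapped and the call was lost without ID8 replicate 1, ID8 replicate 2, uninjected replicate 1 or uninjected replicate 4 and with median-of-ratios scaling (-0.23), plain library totals (-0.091) or a fit of only the groups compared (-0.21), and in DESeq2. Atf6 had 178, 131, 170 and 157 CPM in ID8-FSHR, 197, 170, 197 and 222 CPM in ID8 and 177, 153, 192 and 188 CPM in uninjected libraries, and passed the threshold in no comparison of the groups as fitted. In ID8 over uninjected it passed with plain library totals (0.34, edgeR adjusted p = 0.0196) and in a fit of only the groups compared (0.23, edgeR adjusted p = 0.0469). Its interval for ID8-FSHR over ID8 was -0.54 to -0.073 (log2, 95%, edgeR adjusted p = 0.0841), and it passed there with a replicate block (-0.31) and without ID8-FSHR replicate 1 (-0.37).

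The transcription factors differed by small amounts. Xbp1 had 161, 170, 172 and 138 CPM in ID8-FSHR, 200, 231, 187 and 185 CPM in ID8 and 165, 175, 158 and 148 CPM in uninjected libraries, so that all 4 ID8 libraries lay above the other 8. Its log2 fold change was 0.31 (SE 0.092, edgeR adjusted p = 0.00916) for ID8 over uninjected and -0.33 (SE 0.092, edgeR adjusted p = 0.0376) for ID8-FSHR over ID8. Between ID8-FSHR and uninjected mice Xbp1 did not pass the threshold (95% interval -0.21 to 0.18). Atf4 had 170, 146, 144 and 196 CPM in ID8-FSHR, 164, 158, 142 and 149 CPM in ID8 and 128, 135, 133 and 132 CPM in uninjected libraries. Every tumour library was above every uninjected one, and Atf4 rose in ID8-FSHR (log2 fold change 0.31, SE 0.092, edgeR adjusted p = 0.00942), while ID8 stood at 0.22 (SE 0.092, edgeR adjusted p = 0.054). Atf4 in ID8 passed with median-of-ratios scaling (0.28, edgeR adjusted p = 0.0187), with plain library totals (0.41), in a fit of only the groups compared (0.30), in DESeq2 and without ID8 replicate 3. Ddit3, the gene of CHOP, had 10.8, 6.80, 9.24 and 11.8 CPM in ID8-FSHR, 11.2, 11.6, 12.8 and 8.91 CPM in ID8 and 7.66, 8.03, 7.31 and 8.43 CPM in uninjected libraries. It rose in ID8 (log2 fold change 0.50, SE 0.16, edgeR adjusted p = 0.0163), a call lost without ID8 replicate 3. In ID8-FSHR its log2 fold change was 0.30 (edgeR adjusted p = 0.124), and 0.54 (edgeR adjusted p = 0.00419) without replicate 2, the lowest library of that group, and it also passed with plain library totals (0.50). Ddit3 shares exon bases with Mars on the opposite strand, and no source used here states the strand setting of the counting, so its counts are uncertain.

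The targets of ATF4 and CHOP showed the largest increases of the 33 genes, in both tumour groups. Asns, asparagine synthetase, had 21.4, 12.1, 15.2 and 25.9 CPM in ID8-FSHR, 19.8, 16.8, 17.2 and 19.9 CPM in ID8 and 1.22, 1.55, 1.495 and 1.26 CPM in uninjected libraries. Trib3, a pseudokinase induced by ATF4 and CHOP, had 9.54, 4.42, 7.79 and 10.4 CPM in ID8-FSHR, 4.59, 7.16, 5.12 and 6.70 CPM in ID8 and 0.355, 0.664, 0.566 and 0.828 CPM in uninjected libraries. Chac1, an enzyme that degrades glutathione, was scarce, with 0.569, 0.716, 1.36 and 2.15 CPM in ID8-FSHR, 0.888, 0.665, 0.438 and 0.665 CPM in ID8 and 0, 0.148, 0 and 0.131 CPM in uninjected libraries. A count of 0 allows up to 0.0592 CPM in uninjected replicate 1 and 0.0606 CPM in replicate 3, for counting error only. For all 3 genes every tumour library lay above every uninjected one. Groups without overlap were common, in 57.0% of all tested genes for ID8-FSHR against uninjected and 62.5% for ID8 against uninjected. The log2 fold change of Asns over uninjected was 3.75 (SE 0.22, edgeR adjusted p = 2.05e-08) in ID8-FSHR and 3.73 (SE 0.22, edgeR adjusted p = 1.92e-08) in ID8. That of Trib3 was 3.74 (SE 0.32, edgeR adjusted p = 4.33e-07) in ID8-FSHR and 3.29 (SE 0.32, edgeR adjusted p = 1.25e-06) in ID8, and that of Chac1 was 4.06 (SE 0.78, edgeR adjusted p = 0.000501) in ID8-FSHR and 3.21 (SE 0.78, edgeR adjusted p = 0.00274) in ID8. None of the 3 passed the threshold between the tumour groups, and the 95% intervals of log2 ID8-FSHR over ID8 were wide, -0.40 to 0.44 for Asns, -0.14 to 1.04 for Trib3 and -0.505 to 2.196 for Chac1. Asns and Trib3 were lowest, within ID8-FSHR, in replicate 2, which also had the lowest mesothelial and tumour marker sum (1805 CPM against 3677 to 5327 CPM in the other ID8-FSHR libraries). Chac1 was lowest in replicate 1. Between the groups, the 3 targets summed to a mean of 27.9 CPM in ID8-FSHR and 25.0 CPM in ID8. The marker sum had a mean of 3829 CPM in ID8-FSHR and 7412 CPM in ID8. The part of tumour cell number in these increases was not tested.

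**Figure D2:**
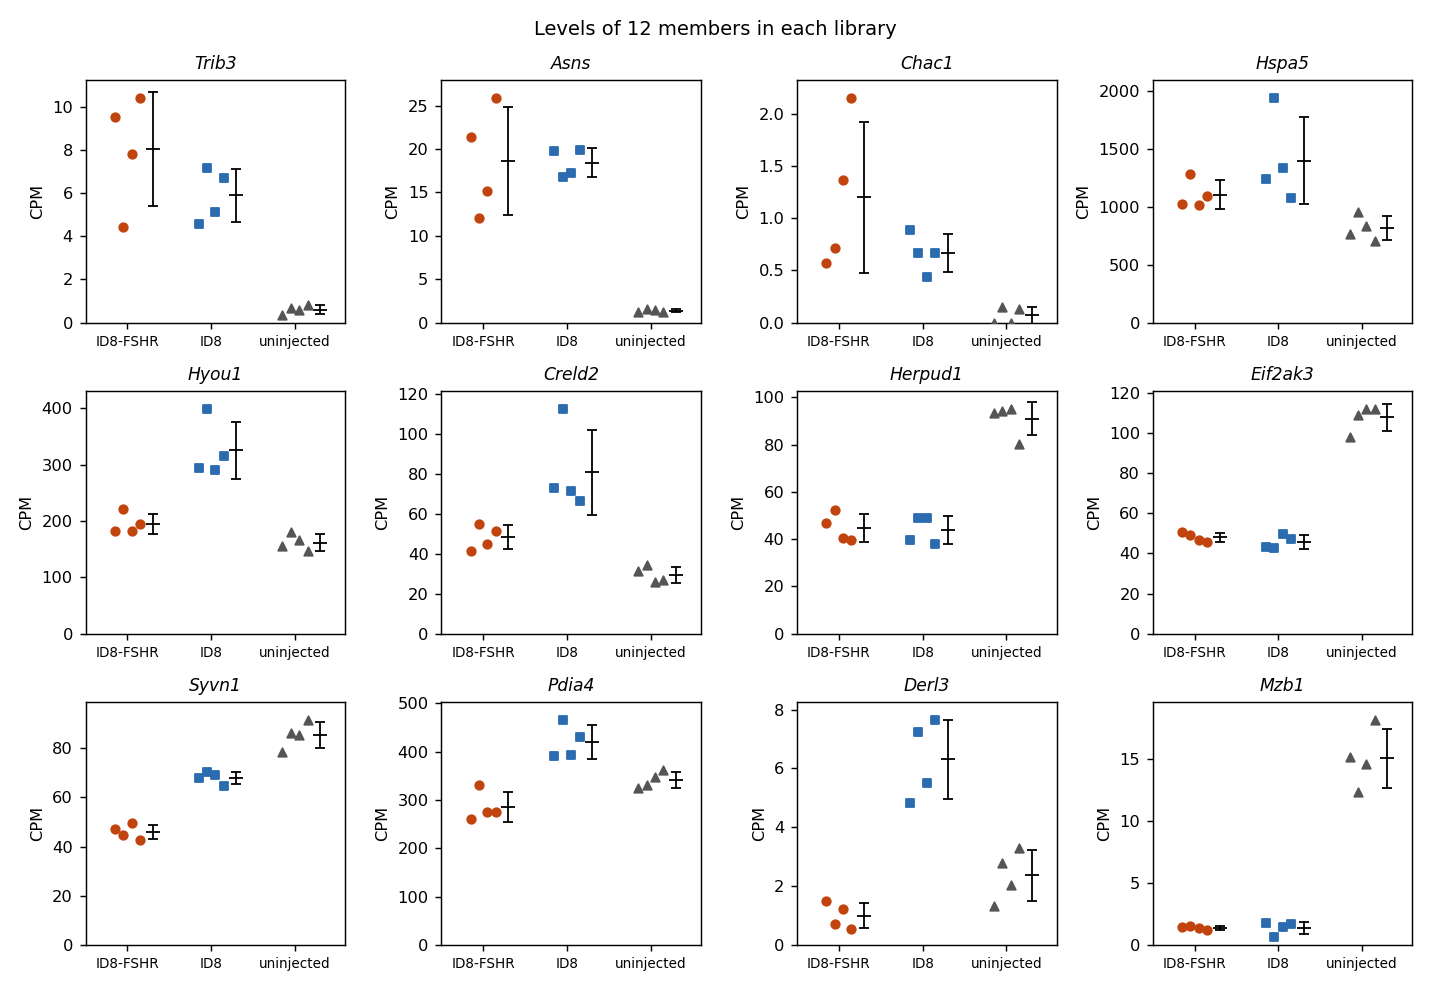
CPM of 12 of the 33 genes in each library (vertical axes start at 0), with the mean and SD of each group of 4 to the right of its points. Trib3, Asns and Chac1 are near 0 in uninjected mice, Hspa5, Hyou1 and Creld2 are highest in ID8, Herpud1, Eif2ak3 and Mzb1 are highest in uninjected mice, and Syvn1, Pdia4 and Derl3 are lowest in ID8-FSHR.

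The main chaperones of the ER lumen had their highest mean in ID8. Hspa5 (chromosome 2, 34771970 to 34777547, plus strand), the gene of BiP, the main Hsp70 of the ER, had 1022, 1283, 1020 and 1099 CPM in ID8-FSHR, 1246, 1945, 1334 and 1077 CPM in ID8 and 770, 956, 835 and 707 CPM in uninjected libraries. Its log2 fold change over uninjected was 0.44 (SE 0.16, edgeR adjusted p = 0.0314) in ID8-FSHR, lost without ID8-FSHR replicate 4 or uninjected replicate 1, 3 or 4, and 0.78 (SE 0.16, edgeR adjusted p = 0.00104) in ID8. The tumour groups overlapped for Hspa5 (ID8-FSHR over ID8 -0.34, 95% interval -0.69 to 0.012, edgeR adjusted p = 0.189). Hyou1, the nucleotide exchange factor of BiP, had 182, 221, 182 and 194 CPM in ID8-FSHR, 295, 399, 290 and 316 CPM in ID8 and 155, 180, 166 and 146 CPM in uninjected libraries. All ID8 libraries lay above all others. The log2 fold change over uninjected was 0.27 (SE 0.11, edgeR adjusted p = 0.0437) in ID8-FSHR and 1.01 (SE 0.11, edgeR adjusted p = 3.78e-06) in ID8. The first is a call that needed each of ID8-FSHR replicate 4 and uninjected replicates 1, 3 and 4 and that was lost under a filter of 1 CPM in 4 libraries. Hsp90b1, the gene of GRP94, the ER member of the Hsp90 family, had 1246, 1586, 1394 and 1308 CPM in ID8-FSHR, 1749, 1882, 1697 and 1752 CPM in ID8 and 1168, 1247, 1150 and 1126 CPM in uninjected libraries. It rose in ID8-FSHR (log2 fold change 0.24, SE 0.082, edgeR adjusted p = 0.0223, lost without uninjected replicate 3 or 4) and in ID8 (0.59, SE 0.083, edgeR adjusted p = 3.55e-05), with all ID8 libraries above all ID8-FSHR libraries.

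The DnaJ partners of BiP differed in direction. Dnajb9, the gene of ERdj4, a partner that restrains IRE1, had 67.2, 60.8, 57.5 and 47.5 CPM in ID8-FSHR, 60.6, 83.0, 83.0 and 59.0 CPM in ID8 and 121, 125, 121 and 112 CPM in uninjected libraries. It fell in both tumour groups, with log2 fold changes of -1.04 (SE 0.13, edgeR adjusted p = 1.3e-05) in ID8-FSHR and -0.75 (SE 0.13, edgeR adjusted p = 0.000217) in ID8, with no overlap with uninjected mice, and the part of the macrophage share was not tested here either. Dnajc3, the gene of p58IPK, had 178, 224, 190 and 171 CPM in ID8-FSHR, 215, 295, 216 and 212 CPM in ID8 and 238, 258, 248 and 226 CPM in uninjected libraries. It fell in ID8-FSHR (log2 fold change -0.35, SE 0.11, edgeR adjusted p = 0.018), a call lost without ID8-FSHR replicate 4 and with plain library totals (-0.15), while ID8 overlapped uninjected mice. Of the remaining partners, Dnajb11 (ERdj3) and Manf, a secreted BiP cofactor, rose in ID8 by 0.35 and 0.64 on the log2 scale (edgeR adjusted p = 0.023 and 0.00252), and the Dnajb11 call was lost without ID8 replicate 2, uninjected replicate 1 or uninjected replicate 4. In ID8-FSHR they stood at 0.14 and 0.33 over uninjected and did not pass the threshold (edgeR adjusted p = 0.335 and 0.0699). Manf in ID8-FSHR passed with median-of-ratios scaling (0.38, edgeR adjusted p = 0.0348), with plain library totals (0.52), in a fit of only the groups compared (0.34), in DESeq2 and with a replicate block, and Dnajb11 with plain library totals (0.33). Sdf2l1, a binding partner of ERdj3, passed it only in ID8 over uninjected with plain library totals (0.40, edgeR adjusted p = 0.0383), at 60.7 to 93.3 CPM in ID8-FSHR, 74.6 to 120 CPM in ID8 and 70.3 to 86.5 CPM in uninjected libraries. Manf shares exon bases with Dcaf1 and Rbm15b, so its counts are uncertain.

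The lectin chaperones, which hold glycoproteins while they fold, rose by modest amounts in ID8. Calr had 1021, 1462, 1062 and 1071 CPM in ID8-FSHR, 1168, 1463, 1252 and 1302 CPM in ID8 and 1070, 1063, 1037 and 992 CPM in uninjected libraries. Its log2 fold change for ID8 over uninjected was 0.32 (SE 0.11, edgeR adjusted p = 0.0251), lost without ID8 replicate 2 or uninjected replicate 3 or 4. Canx had 788, 891, 842 and 836 CPM in ID8-FSHR, 927, 992, 936 and 949 CPM in ID8 and 803, 802, 798 and 766 CPM in uninjected libraries. All 4 ID8 libraries lay above the other 8, and Canx rose in ID8 (log2 fold change 0.26, SE 0.061, edgeR adjusted p = 0.0021). Neither gene passed the threshold in ID8-FSHR over uninjected (95% intervals -0.094 to 0.39 for Calr and -0.049 to 0.22 for Canx), but with plain library totals both did (0.34 for Calr and 0.28 for Canx), and Canx passed without ID8-FSHR replicate 2 (0.15, edgeR adjusted p = 0.0318) and in DESeq2 (0.13). For ID8-FSHR over ID8 the log2 fold changes were -0.17 (edgeR adjusted p = 0.35) for Calr, which changed to -0.29 (edgeR adjusted p = 0.0345) without ID8-FSHR replicate 2, and -0.18 (edgeR adjusted p = 0.074) for Canx, which passed with median-of-ratios scaling (-0.19, edgeR adjusted p = 0.0462), in limma-voom and in DESeq2.

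Among the disulfide and proline folding enzymes, Creld2 moved most. Creld2 (chromosome 15, 88819646 to 88826683, plus strand), an ER stress-inducible disulfide isomerase, had 41.6, 55.2, 45.1 and 51.3 CPM in ID8-FSHR, 73.2, 113, 71.3 and 66.7 CPM in ID8 and 31.2, 34.5, 25.8 and 26.7 CPM in uninjected libraries. The 3 groups did not overlap, and Creld2 rose in ID8-FSHR (log2 fold change over uninjected 0.71, SE 0.16, edgeR adjusted p = 0.00189) and in ID8 (1.45, SE 0.16, edgeR adjusted p = 5.51e-06). Pdia4, the gene of ERp72, had 260, 331, 276 and 275 CPM in ID8-FSHR, 391, 466, 392 and 430 CPM in ID8 and 326, 330, 348 and 363 CPM in uninjected libraries. It was lower than in uninjected mice in ID8-FSHR (log2 fold change -0.26, SE 0.086, edgeR adjusted p = 0.0187) and higher in ID8 (0.30, SE 0.086, edgeR adjusted p = 0.00894). The call in ID8-FSHR was lost with plain library totals (-0.067) and without ID8-FSHR replicate 1, 3 or 4 or uninjected replicate 4, and ID8-FSHR replicate 2 overlapped uninjected mice. Pdia3, the gene of ERp57, the isomerase that works with both lectin chaperones, had 961, 1271, 1047 and 1094 CPM in ID8-FSHR, 1117, 1269, 1058 and 1153 CPM in ID8 and 917, 897, 869 and 847 CPM in uninjected libraries. It rose in both tumour groups (log2 fold change 0.31, edgeR adjusted p = 0.0089, in ID8-FSHR and 0.38, edgeR adjusted p = 0.00238, in ID8), and they overlapped each other.

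Txndc5, the gene of ERp46, had 164, 157, 156 and 162 CPM in ID8-FSHR, 163, 185, 154 and 177 CPM in ID8 and 193, 200, 190 and 197 CPM in uninjected libraries. It fell in ID8-FSHR (log2 fold change -0.29, SE 0.063, edgeR adjusted p = 0.00126) and in ID8 (-0.20, SE 0.062, edgeR adjusted p = 0.0133). These small falls depended on scaling: with plain library totals Txndc5 stood at -0.094 in ID8-FSHR and -0.0072 in ID8, and neither passed the threshold. Fkbp11, a proline isomerase of secretory cells, was scarce, with 2.51, 2.49, 2.86 and 2.66 CPM in ID8-FSHR, 3.94, 3.83, 4.40 and 3.47 CPM in ID8 and 2.94, 2.71, 3.66 and 2.42 CPM in uninjected libraries. It rose in ID8 (log2 fold change 0.41, SE 0.16, edgeR adjusted p = 0.0402), where the groups overlapped and the call was lost without any of ID8 replicates 1, 2 or 3 or uninjected replicates 1, 2 or 4. Pdia6, the isomerase P5, had 272 to 426 CPM in ID8-FSHR, 302 to 429 CPM in ID8 and 255 to 299 CPM in uninjected libraries. It passed the threshold in no comparison as fitted, but in ID8 over uninjected it passed with median-of-ratios scaling (0.40, edgeR adjusted p = 0.0203), with plain library totals (0.53), in a fit of only the groups compared (0.42), in limma-voom (0.33) and DESeq2 (0.40), with a replicate block and without ID8 replicate 3. In ID8-FSHR over uninjected it passed with plain library totals (0.41, edgeR adjusted p = 0.0166).

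Most of the 7 genes of ER-associated degradation among the 33 were lower in the tumour groups. Of the 7, 6 were lower and 1 higher in ID8-FSHR, and 4 were lower and 2 higher in ID8, than in uninjected mice. Of all tested genes, 30.6% were lower and 33.9% higher in ID8-FSHR, and 31.4% lower and 32.7% higher in ID8. Herpud1, a scaffold of the HRD1 ubiquitin ligase complex, had 46.7, 52.3, 40.4 and 39.6 CPM in ID8-FSHR, 39.7, 48.7, 48.9 and 37.9 CPM in ID8 and 93.5, 94.3, 95.1 and 80.4 CPM in uninjected libraries. It fell, with log2 fold changes of -1.02 (SE 0.11, edgeR adjusted p = 4.14e-06) in ID8-FSHR and -1.05 (SE 0.11, edgeR adjusted p = 3.2e-06) in ID8, with no overlap with uninjected mice, and the part of the macrophage share was again not tested. Syvn1 (chromosome 19, 6046576 to 6053712, plus strand), the gene of the HRD1 ligase itself, had 47.1, 44.9, 49.4 and 42.8 CPM in ID8-FSHR, 67.7, 70.2, 69.0 and 64.6 CPM in ID8 and 78.3, 86.3, 85.2 and 91.5 CPM in uninjected libraries. The 3 groups did not overlap, and Syvn1 fell in ID8-FSHR (-0.89, SE 0.066, edgeR adjusted p = 1.22e-07) and in ID8 (-0.33, SE 0.065, edgeR adjusted p = 0.000654, lost with plain library totals at -0.14). It shares exon bases with Mrpl49 on the opposite strand, so its counts are uncertain.

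Derl3 went in opposite directions in the tumour groups. Derl3 (chromosome 10, 75893413 to 75895941, plus strand) encodes a derlin, a family that carries misfolded proteins out through the ER membrane, and is known as the derlin of secretory cells. It had 1.49, 0.716, 1.22 and 0.548 CPM in ID8-FSHR, 4.84, 7.24, 5.52 and 7.65 CPM in ID8 and 1.32, 2.79, 2.04 and 3.29 CPM in uninjected libraries. All ID8 libraries lay above all others, while ID8-FSHR overlapped uninjected mice, and its log2 fold change over uninjected was -1.24 (SE 0.34, edgeR adjusted p = 0.00664) in ID8-FSHR and 1.42 (SE 0.33, edgeR adjusted p = 0.00221) in ID8. Edem1, which directs glycoproteins to degradation, had 163, 240, 176 and 164 CPM in ID8-FSHR, 156, 204, 162 and 149 CPM in ID8 and 244, 253, 228 and 235 CPM in uninjected libraries. It fell in ID8-FSHR (log2 fold change -0.37, SE 0.13, edgeR adjusted p = 0.0226) and in ID8 (-0.52, SE 0.13, edgeR adjusted p = 0.00321). The call in ID8-FSHR was lost with plain library totals (-0.18) and without ID8-FSHR replicate 1, 3 or 4 or uninjected replicate 2. Derl1 fell (-0.48 in ID8-FSHR and -0.38 in ID8, edgeR adjusted p = 0.00136 and 0.0068) and Derl2 rose (0.27 in ID8-FSHR and 0.21 in ID8, edgeR adjusted p = 0.00459 and 0.0198). The Derl1 call in ID8 was lost with plain library totals (-0.18), and the Derl2 call in ID8 without ID8 replicate 1 or uninjected replicate 3. Derl2 shares exon bases with Mis12 on the opposite strand, so its counts are uncertain. Sel1l, the partner of HRD1, was lower in ID8-FSHR (-0.23, edgeR adjusted p = 0.045), a call lost in 11 of 17 alternative analyses.

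Mzb1, which folds antibody chains in B cells and plasma cells, fell more than any other of the 33 genes. It had 1.44, 1.53, 1.32 and 1.17 CPM in ID8-FSHR, 1.78, 0.625, 1.41 and 1.65 CPM in ID8 and 15.2, 12.4, 14.6 and 18.2 CPM in uninjected libraries. Every tumour library lay below every uninjected one, and the log2 fold change was -3.46 (SE 0.27, edgeR adjusted p = 1.73e-07) in ID8-FSHR and -3.45 (SE 0.27, edgeR adjusted p = 1.67e-07) in ID8. Beside it, all 12 B cell markers were lower in both tumour groups, and their summed level was 365 to 642 CPM in ID8-FSHR, 416 to 605 CPM in ID8 and 3263 to 4309 CPM in uninjected libraries. The plasma cell markers summed to 136 to 164 CPM in ID8-FSHR, 150 to 164 CPM in ID8 and 221 to 312 CPM in uninjected libraries, but they did not move together. Of the 6 tested, 1 was higher and 4 lower in ID8-FSHR and 1 higher and 5 lower in ID8. The higher one was Sdc1 (log2 fold change 1.64 in ID8-FSHR and 2.01 in ID8), a syndecan that epithelial cells also carry, while Jchain (-2.67 in ID8-FSHR and -2.54 in ID8) and Irf4 (-1.77 in ID8-FSHR and -1.80 in ID8) were lower. Without Sdc1 the sum was 74.5 to 126.5 CPM in ID8-FSHR, 80.0 to 92.7 CPM in ID8 and 211 to 294 CPM in uninjected libraries, and Tnfrsf17, the defining receptor of plasma cells, was at or near 0 in all groups. Of 5 tested markers of plasmacytoid dendritic cells, 3 were lower and 1 higher in ID8-FSHR, and 3 lower and 0 higher in ID8. The part of B cell number, or of the number of other cells, in the fall of Mzb1 was not tested. Mzb1 shares 695 exon bases with SPATA24 on the same strand, whose row held 2 counts against 3608 for Mzb1, so its counts are uncertain.

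**Figure D3:**
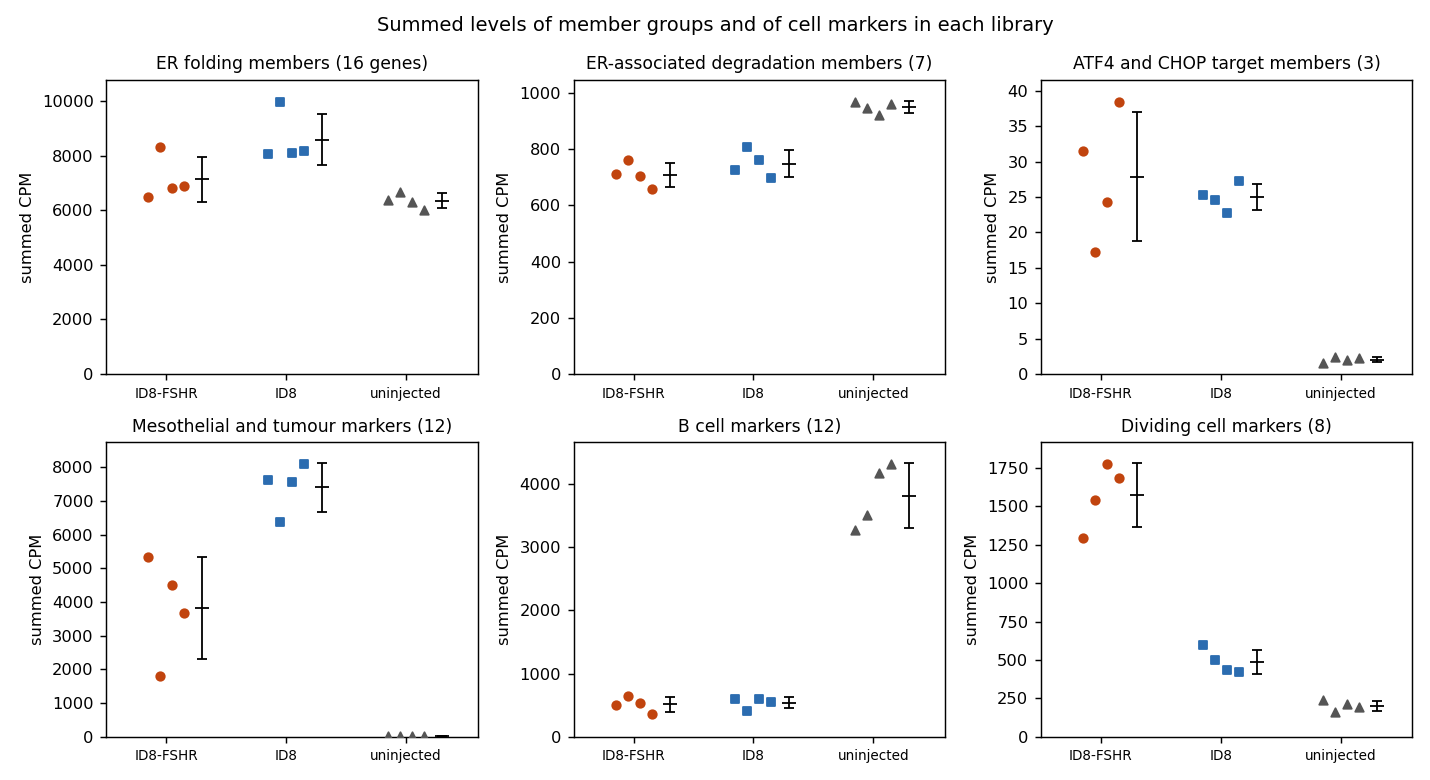
Summed CPM in each library of the 16 folding genes, the 7 degradation genes, the 3 ATF4 and CHOP targets and 3 lists of cell markers (vertical axes start at 0), with the mean and SD of each group of 4. The folding genes are highest in ID8 apart from ID8-FSHR replicate 2, the degradation genes are highest in uninjected mice, and mesothelial and tumour markers are near 0 in uninjected mice.

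The addition of the receptor to the line is the question behind ID8-FSHR against ID8. In that comparison 8 of the 33 genes (24.2%) were lower and 0 were higher, and 25 of 33 (75.8%) lay below 0, as did 50.8% of all tested genes. At an unadjusted p under 0.05 edgeR had 0 higher and 12 lower, where 14.4% of all tested genes were higher and 14.2% lower. DESeq2 and limma-voom each called 0 higher and 9 lower, where DESeq2 called 8.39% of the genes it tested higher and 8.55% lower, and limma-voom 5.82% higher and 7.48% lower. The largest difference was that of Derl3, at -2.66 on the log2 scale (SE 0.35, edgeR adjusted p = 0.00046). Creld2 stood at -0.74 (SE 0.16, edgeR adjusted p = 0.0115), Hyou1 at -0.74 (SE 0.11, edgeR adjusted p = 0.000933), Syvn1 at -0.56 (SE 0.066, edgeR adjusted p = 0.000201) and Pdia4 at -0.55 (SE 0.087, edgeR adjusted p = 0.0014). These 5 passed the threshold in each of 17 alternative analyses. Hsp90b1 (-0.36, SE 0.082, edgeR adjusted p = 0.0164) lost it in a fit of only the groups compared, and Xbp1 (-0.33) without any of the 4 ID8 libraries or ID8-FSHR replicate 4 and in that fit. Fkbp11 (-0.57, SE 0.16, edgeR adjusted p = 0.0413) lost it without any of the 8 tumour libraries, without the filter and in that fit. For each of the 8 genes, no ID8-FSHR library reached the lowest ID8 library. The tumour groups did not overlap for 9 of the 33 genes, and for 18.5% of all tested genes. Of the 9 genes with an ER stress element in the window, 0 were higher and 4 lower (Hsp90b1, Creld2, Derl3 and Syvn1). Pdia4, Xbp1 and Fkbp11, whose windows held no such element, and Hyou1, without a window, were lower too. Of all tested genes 6.04% were higher and 5.56% lower. Over uninjected mice, 6 of the 9 were higher and 1 lower in ID8, where 32.7% of all tested genes were higher and 31.4% lower. In ID8-FSHR 3 of the 9 were higher and 3 lower, where 33.9% of all tested genes were higher and 30.6% lower.

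By role, the genes lower in ID8-FSHR than in ID8 were 1 of 3 transcription factors, 2 of 8 chaperones and partners and 0 of 2 lectin chaperones. They were also 3 of 6 disulfide and proline enzymes and 2 of 7 degradation genes. None of the sensors, the ATF4 and CHOP targets or Mzb1 passed the threshold. Among all tested genes 5.56% were lower and 6.04% higher. Mesothelial and tumour markers were also lower in ID8-FSHR, 6 of 12 past the threshold, and the 8 markers of dividing cells were all higher, at 1297 to 1774 CPM in ID8-FSHR and 420 to 595 CPM in ID8. Of 8 T cell markers 4 were higher and 0 lower in ID8-FSHR than in ID8, with sums of 66.8 to 145 CPM in ID8-FSHR, 43.4 to 50.9 CPM in ID8 and 51.6 to 156 CPM in uninjected libraries, and 0 of the 8 passed without ID8-FSHR replicate 2. ID8-FSHR replicate 2 had the lowest mesothelial and tumour sum of the tumour libraries (1805 CPM) and the highest sum of the 16 folding genes in its group (8332 CPM, the other 3 at 6474 to 6896 CPM). The part of the cell mixture in these differences was not tested. The interval of the genes not past the threshold still allows differences of some size, for example -0.69 to 0.015 for Sdf2l1, -0.63 to 0.023 for Manf and -0.43 to 0.19 for Pdia6 (log2, 95%).

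Without ID8-FSHR replicate 2, 12 of the 33 genes were higher and 12 lower in ID8-FSHR than in uninjected mice, where 37.3% of all tested genes were higher and 27.0% lower. Ddit3 and Canx gained the threshold and Sel1l lost it (-0.20, edgeR adjusted p = 0.0513), and the other 22 calls held. Log2 fold changes over uninjected were then 4.01 for Asns, 4.04 for Trib3 and 4.34 for Chac1 among the ATF4 and CHOP targets, and 0.47 for Atf4. Among folding genes they were 0.46 for Hspa5, 0.30 for Hyou1, 0.27 for Hsp90b1, 0.33 for Pdia3 and 0.74 for Creld2, and, of those lower, -0.96 for Dnajb9, -0.33 for Dnajc3, -0.24 for Pdia4 and -0.18 for Txndc5. Among the rest they were -1.08 for Eif2ak3, -0.36 for Ern1, -1.003 for Herpud1, -0.78 for Syvn1, -1.02 for Derl3, -0.41 for Edem1, -0.31 for Derl1, 0.40 for Derl2 and -3.42 for Mzb1. Between the tumour groups 9 of the 33 were then lower and 0 higher, where 5.52% of all tested genes were higher and 4.23% lower. Calr and Dnajc3 (-0.37, edgeR adjusted p = 0.0454) passed and Fkbp11 (-0.53, edgeR adjusted p = 0.0919) did not. The others stood at -2.52 for Derl3, -0.80 for Creld2, -0.79 for Hyou1, -0.62 for Pdia4, -0.53 for Syvn1, -0.41 for Hsp90b1 and -0.34 for Xbp1.

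**Figure D4:**
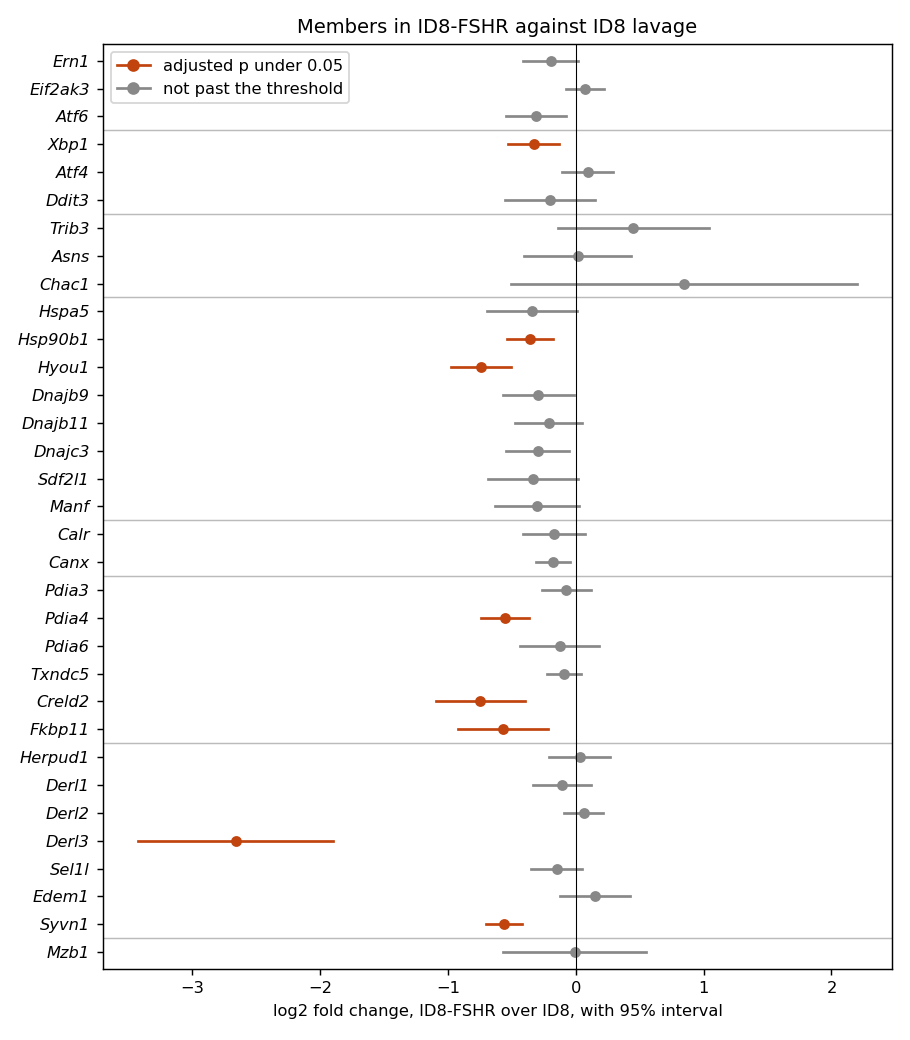
Log2 fold change of ID8-FSHR over ID8 for the 33 genes, with the 95% interval of the fit, in order of role with lines between role groups. The 8 genes past the threshold lie between -2.66 and -0.33, and all 8 intervals lie below 0.

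Within each group, 1 library was often the highest or the lowest for most folding genes. ID8 replicate 2 had the highest level of its group for 15 of the 16 folding genes, among them Hspa5 (1945 CPM, the other 3 at 1077 to 1334 CPM) and Creld2 (113 CPM, the other 3 at 66.7 to 73.2 CPM). ID8-FSHR replicate 2 was the highest of its group for 13 of 16, and uninjected replicate 2 for 10 of 16. Uninjected replicate 4 was the lowest of its group for 12 of 16. These are counts in single libraries, with genes that share a library, and no test was made. Without ID8 replicate 2, 15 of the 33 genes were higher and 8 lower in ID8 than in uninjected mice, where 30.9% of all tested genes were higher and 29.5% lower. Without it 0 were higher and 6 lower in ID8-FSHR than in ID8, where 5.29% of all tested genes were higher and 4.58% lower. Summed over all 33 genes the level was 7922 to 9736 CPM in ID8-FSHR, 9576 to 11560 CPM in ID8 and 7765 to 8372 CPM in uninjected libraries. Per kilobase of merged exon (GENCODE M21), Calr led the 31 genes with a length in each group, at 401 CPM per kb in ID8-FSHR, 450 in ID8 and 362 in uninjected mice. Pdia3 came next in ID8-FSHR and Hsp90b1 in the other groups, Pdia3 at 348 CPM per kb in ID8-FSHR, 366 in ID8 and 281 in uninjected mice and Hsp90b1 at 343 in ID8-FSHR, 439 in ID8 and 291 in uninjected mice. Hspa5 followed at 262 CPM per kb in ID8-FSHR, 331 in ID8 and 193 in uninjected mice. Chac1 was lowest of them in uninjected mice, at 0.0425 CPM per kb.

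Other genes of the same pathways were taken from lists of genes outside the 33. Of all tested genes, 33.9% were higher and 30.6% lower in ID8-FSHR and 32.7% higher and 31.4% lower in ID8 than in uninjected mice. Between the tumour groups 6.04% were higher and 5.56% lower in ID8-FSHR than in ID8. Of 23 other ATF4 pathway genes 12 were higher and 6 lower in ID8-FSHR, and 12 higher and 5 lower in ID8, than in uninjected mice, while 4 were higher and 2 lower in ID8-FSHR than in ID8. Psat1, an enzyme of serine synthesis, averaged 106 ± 16.3 CPM in ID8-FSHR, 52.8 ± 6.04 CPM in ID8 and 15.5 ± 3.05 CPM in uninjected mice (SD, n = 4 each), with a log2 fold change over uninjected of 2.77 (edgeR adjusted p = 1.44e-08) in ID8-FSHR and 1.77 (edgeR adjusted p = 4.99e-07) in ID8, and of 1.00 (edgeR adjusted p = 0.00102) between them. Mthfd2, a mitochondrial folate enzyme, was also higher in ID8-FSHR than in ID8 (0.93, edgeR adjusted p = 0.0168), and Sesn2, a sestrin that restrains mTORC1, and Nupr1 were lower (-0.55 and -0.64, edgeR adjusted p = 0.00847 and 0.000603). Ddit4, an inhibitor of mTORC1, rose over uninjected mice in ID8-FSHR (2.40, edgeR adjusted p = 1.77e-05) and in ID8 (2.85, edgeR adjusted p = 4.36e-06). Ppp1r15a, which reverses the translation block set by PERK, fell in ID8-FSHR (-1.10, edgeR adjusted p = 3.71e-05) and in ID8 (-0.94, edgeR adjusted p = 0.000135). An analysis of these lists without ID8-FSHR replicate 2 was added after seeing the data. In it 13 of the 23 were higher and 5 lower in ID8-FSHR than in uninjected mice, where 37.3% of all tested genes were higher and 27.0% lower. Against ID8, 5 of the 23 were higher and 2 lower, where 5.52% of all tested genes were higher and 4.23% lower. Psat1 then stood at 2.97 over uninjected and 1.12 over ID8.

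For the lists below, 33.9% of all tested genes were higher and 30.6% lower in ID8-FSHR than in uninjected mice. In ID8 these shares were 32.7% and 31.4%, and between the tumour groups 6.04% were higher and 5.56% lower in ID8-FSHR. Of 11 tested other transducers, 5 were higher and 3 lower in each tumour group than in uninjected mice. Between the tumour groups 1 was higher and 2 lower in ID8-FSHR than in ID8. Creb3l2, an ER-bound transcription factor cut like ATF6, rose by 0.82 (edgeR adjusted p = 0.00164) in ID8-FSHR and 1.80 (edgeR adjusted p = 2.77e-06) in ID8, and was lower in ID8-FSHR than in ID8 (-0.98, edgeR adjusted p = 0.00498). ID8-FSHR replicate 2 lay within the uninjected range for it, and without that library the log2 fold change was 1.11 over uninjected (edgeR adjusted p = 2.39e-07) and -0.77 over ID8 (edgeR adjusted p = 0.000284). Without that library 6 of the 11 were higher and 0 lower in ID8-FSHR than in uninjected mice. Of all tested genes 37.3% were then higher and 27.0% lower. Of 22 other ER folding genes, 9 were higher and 5 lower in ID8-FSHR and 8 higher and 6 lower in ID8 than in uninjected mice, and 0 passed the threshold between the tumour groups (2 higher and 0 lower at an unadjusted p under 0.05 in edgeR). Fkbp10, a proline isomerase that serves collagen folding, had 28.4 to 69.1 CPM in ID8-FSHR, 44.0 to 57.4 CPM in ID8 and 0 to 0.261 CPM in uninjected libraries. Ero1lb, the oxidase of secretory cells that recharges disulfide isomerases, fell with log2 fold changes of -1.99 (edgeR adjusted p = 2.21e-08) in ID8-FSHR and -1.88 (edgeR adjusted p = 3.19e-08) in ID8. Of 16 other degradation genes, 4 were higher and 4 lower in ID8-FSHR and 5 higher and 3 lower in ID8 than in uninjected mice. The lectin Os9 was the only one to pass between the tumour groups (-0.39, edgeR adjusted p = 0.00543). Of 20 translocation and N-glycosylation genes, 7 were higher and 5 lower in ID8-FSHR and 9 higher and 4 lower in ID8 than in uninjected mice, with Serp1, a partner of the translocon, at -1.03 (edgeR adjusted p = 1.51e-07) in ID8-FSHR and -0.98 (edgeR adjusted p = 2.19e-07) in ID8. Of 15 heat shock genes outside the ER, mostly cytosolic, 11 were higher and 0 lower in each tumour group than in uninjected mice (0 lower also at an unadjusted p under 0.05 in edgeR, where 32.4% of all tested genes were lower in ID8-FSHR and 33.4% in ID8), among them the mitochondrial Hspd1 and Hspe1 and Hspb1, a small heat shock protein (3.79, edgeR adjusted p = 7.09e-07, in ID8-FSHR and 4.69, edgeR adjusted p = 1.35e-07, in ID8).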

How the data were processed

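Bulk RNA-seq counts of peritoneal lavage cells were used. The authors deposited whole-number read counts per gene, not normalized, made with bcl2fastq 2.20, STAR 2.7.9a and featureCounts (Subread 1.6.4) on GRCm38.p6, per the submitters' processing notes. No source used here states the strand setting. Groups and replicate numbers came from the labels. Whether replicates are separate mice is stated only as biological replicates, so p-values measure the spread between these samples. In R 4.3.3, counts of 12 libraries were filtered with edgeR's default (edgeR 4.0.16), scaled by TMM and tested with the robust quasi-likelihood F test on group, with Benjamini-Hochberg adjustment over 16915 genes and a threshold of 0.05. Totals were 47419608 to 64333677 counts, and limits for 0 counts (3 counts) and intervals cover counting error only. Alternatives were DESeq2 1.42.0, limma-voom (limma 3.58.1), other scalings, filters, thresholds, a fit of only the groups compared, a replicate block, and leaving out each library. The test was tried on simulated data. The 33 genes and the other lists were chosen with earlier results of these data known. Values in each library are given for the sensors and transcription factors and, per role group and comparison, for up to 3 genes past the threshold with the largest change. From each pathway list up to 4 genes could be named. Of the symbols, Ddit3 stood on 2 rows, of which the row with counts was kept. Coordinates are from GENCODE M21 (GRCm38), which held 31 of the 33 identifiers. Promoter windows are from RefSeq.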

Additional observations from a re-analysis of the deposited data

Results flagged for a closer look

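In 7 of 99 groups of 4 libraries 1 library lay far from the other 3, where chance alone gives about 1 in 20. In ID8-FSHR, replicate 2 stood high for Calr (1462 CPM, the others 1021 to 1071 CPM) and Pdia6 (425.5 CPM, the others 271.9 to 293.9 CPM). In ID8, replicate 2 stood high for Dnajc3 (294.8 CPM, the others 211.9 to 216.2 CPM), Creld2 (112.6 CPM, the others 66.68 to 73.17 CPM) and Sel1l (227.6 CPM, the others 178.2 to 183.5 CPM). In uninjected mice, replicate 4 stood low for Canx (765.7 CPM, the others 797.6 to 803.2 CPM) and Herpud1 (80.42 CPM, the others 93.51 to 95.09 CPM).

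The change over uninjected mice differed between the tumour groups for 8 of the 33 genes, tested as ID8-FSHR over ID8 with edgeR's adjusted p. All 8 were lower in ID8-FSHR, where 6.04% of all tested genes were higher and 5.56% lower. The calls of Xbp1, Hsp90b1 and Fkbp11 were lost in some alternatives. The log2 differences were -0.3277 for Xbp1, -0.3556 for Hsp90b1, -0.7381 for Hyou1, -0.5548 for Pdia4, -0.7444 for Creld2, -0.5698 for Fkbp11, -2.6597 for Derl3 and -0.5592 for Syvn1.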

How the results depend on the processing

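No fold change of the 33 genes that passed the threshold turned its sign in any alternative. The alternatives held 1878 fold changes of these genes, with the stricter thresholds on the main fit counted among them. Of these, 132 lost the cut in use, part of them only under a stricter threshold, and 36 gained it. Of the calls, 15 of 23 for ID8-FSHR over uninjected, 18 of 27 for ID8 over uninjected and 5 of 8 for ID8-FSHR over ID8 held in every alternative apart from stricter thresholds. With a fold of at least 1.5 required, 4 genes were higher and 6 lower in ID8-FSHR than in uninjected mice (4266 of all genes higher and 3347 lower). In ID8, 9 were higher and 4 lower than in uninjected mice (4184 of all genes higher and 3391 lower). Between the tumour groups 3 were lower in ID8-FSHR than in ID8 (612 of all genes higher and 511 lower). At an adjusted p under 0.01, 4 were lower in ID8-FSHR than in ID8 (428 of all genes higher and 279 lower). A fit of only the groups compared left 5 lower in ID8-FSHR than in ID8 (746 of all genes higher and 604 lower). DESeq2 called 1445 of all genes higher and 1472 lower there. With plain library totals, 16 genes were higher and 8 lower in ID8-FSHR (7097 of all genes higher and 3669 lower), and 22 higher and 5 lower in ID8 (6907 of all genes higher and 3808 lower), than in uninjected mice, whose summed level was 7381 CPM in place of 8074 CPM. Leaving out each library gave 0 genes higher and 6 to 9 lower in ID8-FSHR than in ID8, with 555 to 1731 of all genes higher and 406 to 1405 lower. The other counts ranged from 7 to 12 higher and 9 to 13 lower in ID8-FSHR, and from 15 to 18 higher and 8 to 9 lower in ID8, than in uninjected mice. Of all genes, 5468 to 6475 were then higher and 4691 to 4887 lower in ID8-FSHR. In ID8, 5270 to 5457 of all genes were higher and 4890 to 5119 lower. The cause of these changes was not tested.

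Whether replicate numbers pair the samples was not settled. Same-numbered libraries correlated from -0.217 to 0.352 in their deviations from the group means, highest between ID8-FSHR replicate 2 and ID8 replicate 2. Libraries of different number were not compared. With a replicate block, 11 genes were higher and 13 lower in ID8-FSHR than in uninjected mice (5574 of all genes higher and 5092 lower). In ID8, 19 were higher and 9 lower than in uninjected mice (5404 of all genes higher and 5177 lower). Between the tumour groups 0 were higher and 10 lower in ID8-FSHR (860 of all genes higher and 916 lower). Chac1, at under 1 CPM in most libraries, was not tested under the filter of 1 CPM in 4 libraries.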
